A study of Mus musculus with 4 samples.

Results

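The genes described here are 10 genes of the neuronal cytoskeleton and axon, of 25694 genes tested, followed across the 4 arrays of the study. They were chosen by name, with earlier results of these data known, so counts over them describe the list and do not test it. The list holds the neurofilament triplet Nefl, Nefm and Nefh, the related filament genes Ina and Prph, and the tubulin gene Tubb3. It also holds the stathmins Stmn2 and Stmn3, the growth cone gene Gap43, and Uchl1. All 10 were represented on the array, by 11 probes of 39429, and Nefh by 2 of them. Each array gave every member probe a signal well above background in Cy5 and in Cy3, with no saturated or flagged spot. Genes of which this holds are called measured throughout below.

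The study gave BALB/c mice diesel exhaust particles (DEPs), the soot fraction of diesel exhaust, by inhalation and asked which transcripts differed in the middle ear. It used 9 male mice of 6 to 10 weeks, with 1 h of inhalation on each of 5 days for the DEP group, no treatment for the control by its label, and tissue taken on day 14. Tissue came from the temporal bone region that holds the middle ear, and no genetic modification was named for either group. Each of 4 2-colour arrays held 1 extract labelled DEP in Cy5 and 1 labelled control in Cy3, and each ratio is the first over the second. How many mice contributed to an extract was not given in the sources used here, and the dyes were not swapped, so dye bias and exposure cannot be told apart. The arrays were described as biological replicates, with no animal named for each, so p-values measure the spread between these 4 arrays. One of the labels lists both treatments for the Cy5 extract, and the direction here rests on the source names of the channels. For Slc1a2 this direction opposes that of the study, which lists it among the raised genes. Here it was lower in the DEP channel (mean log2 ratio -1.61, limma adjusted p = 0.167). By quantitative PCR the paper also reported CHRM1 and EPO as raised and SOS1, ESR1, CD4 and IFNA1 as lowered. The ratios of those genes are not reported here. Whether the channel labels are exchanged was not tested, so every direction below is that of the source names.

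Neurofilaments are the intermediate filaments of neurons. Light, medium and heavy subunits co-assemble, mostly with alpha-internexin in the central nervous system and with peripherin in peripheral neurons, and the filaments set the calibre of axons. The stathmins bind tubulin and regulate microtubule turnover, beta-III tubulin is the neuronal tubulin, GAP-43 lies under the growth cone membrane, and UCHL1, also known as PGP9.5, is a neuronal deubiquitinase whose antibody is widely used to trace nerve fibres. Most of the mRNA of these genes is in nerve cell bodies, which in the temporal bone include those of the geniculate, vestibular and spiral ganglia. The extracts also held markers of other neurons, with 5 of 9 cerebellar and 3 of 7 cholinergic and autonomic markers measured throughout. Which neurons the members' mRNA came from was not tested. In bulk tissue, fewer neurons and less RNA per neuron cannot be told apart.

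Promoter sequences were available for 5 members, Stmn3, Uchl1, Tubb3, Prph and Ina, from the RefSeq table of GRCm38.p6, and Stmn2, Nefl, Nefm, Nefh and Gap43 had no entry there. The pair Prph and Ina is shown because the ratios of these genes, the peripheral and the central partner of the triplet, are contrasted below. Each sequence runs 5' to 3' from 250 bases before the transcript start to 50 after it, with capitals for 3 motifs read on either strand, of which the binding motif of Sp1 factors is spelled GGGCGG, the core promoter motif bound by TBP is spelled TATAAA, and the motif bound by NF-Y is spelled CCAAT.
Prph, chr15:99054924-99055223, plus strand: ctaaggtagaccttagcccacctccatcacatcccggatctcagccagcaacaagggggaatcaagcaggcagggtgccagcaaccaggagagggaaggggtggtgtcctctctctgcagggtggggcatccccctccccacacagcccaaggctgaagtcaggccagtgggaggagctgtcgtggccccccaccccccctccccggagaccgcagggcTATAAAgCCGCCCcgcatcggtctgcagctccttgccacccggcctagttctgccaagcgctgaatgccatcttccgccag
Ina, chr19:47014431-47014730, plus strand: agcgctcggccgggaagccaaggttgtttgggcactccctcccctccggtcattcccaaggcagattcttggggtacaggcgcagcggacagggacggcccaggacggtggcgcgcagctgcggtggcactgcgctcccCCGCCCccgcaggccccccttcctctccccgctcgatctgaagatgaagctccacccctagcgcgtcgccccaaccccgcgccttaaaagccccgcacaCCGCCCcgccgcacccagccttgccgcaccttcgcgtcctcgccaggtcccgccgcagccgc
Prph held TATAAA at -31, counted from the start, followed at -24 by GGGCGG on the opposite strand. Ina held GGGCGG at -111 and -12 on the opposite strand, and no TATAAA. Of 32851 promoters of this length, 35.7% held GGGCGG, 13.6% TATAAA and 37.4% CCAAT. GC content was 64.7% with 10 CpG in the Prph window and 71.7% with 32 CpG in the Ina window, against medians of 52.7% and 7. In the Tubb3 window GGGCGG stood at -138 and -46 and CCAAT, on the opposite strand, at -77, while the Stmn3 and Uchl1 windows held none of these 3. TTCAGCACC, a part of the RE1 element, and TGACGTCA, the cAMP response element, were in none of the 5 windows on either strand, against 0.371% and 1.79% of all promoters.

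All 10 members had a lower mean in the DEP channel, where 45.8% of all genes tested did. The mean log2 ratio was past 2-fold lower for 7 of 10, against 4.40% of all genes. The unadjusted p of limma's moderated test was under 0.05 for 4 of 10, Ina, Stmn2, Stmn3 and Gap43, against 8.66% of all genes in that direction. After Benjamini-Hochberg adjustment over all 31577 probes, 0 of 10 passed, and the share over all genes was 0%. The median of the members' mean log2 ratios was -1.21, against 0.03 over all genes. The members share the same 4 pairs of extracts, so their counts are not independent measurements.

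The arrays did not carry the shift equally. On arrays 1, 2 and 3 all 10 members were lower in the DEP channel, with member medians of -2.77, -1.09 and -1.32, except that under normexp with median centring 2 of 10 were higher on array 3. On array 4, 9 of 10 were higher and Ina alone was lower, with a median of 0.37. The medians over all genes on the same arrays lay between -0.02 and 0.08. Past 2-fold lower stood 10 members on array 1, 6 on array 2, 6 on array 3 and 0 on array 4, where Nefl and Nefm were past 2-fold higher. Of the genes measured throughout, 7.06%, 4.11%, 3.21% and 2.95% were past 2-fold lower on these arrays, and 0.845% were past 2-fold higher on array 4. Only Ina, 1 of 10, was lower on all 4 arrays, against 11.5% of genes with 4 ratios, whereas all 10 were lower on at least 3, against 32.5%. Without array 4, 9 members had an unadjusted p under 0.05 (10.02% of all genes) and 9 were past 2-fold (6.14%), and without array 1 only 2 were past 2-fold (3.68%). Without array 2, 0 had an unadjusted p under 0.05 (5.68%), and without array 1 or array 3, 1 did (7.04% and 5.97%). The adjusted count was 0 in each case.

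**Figure D1:**
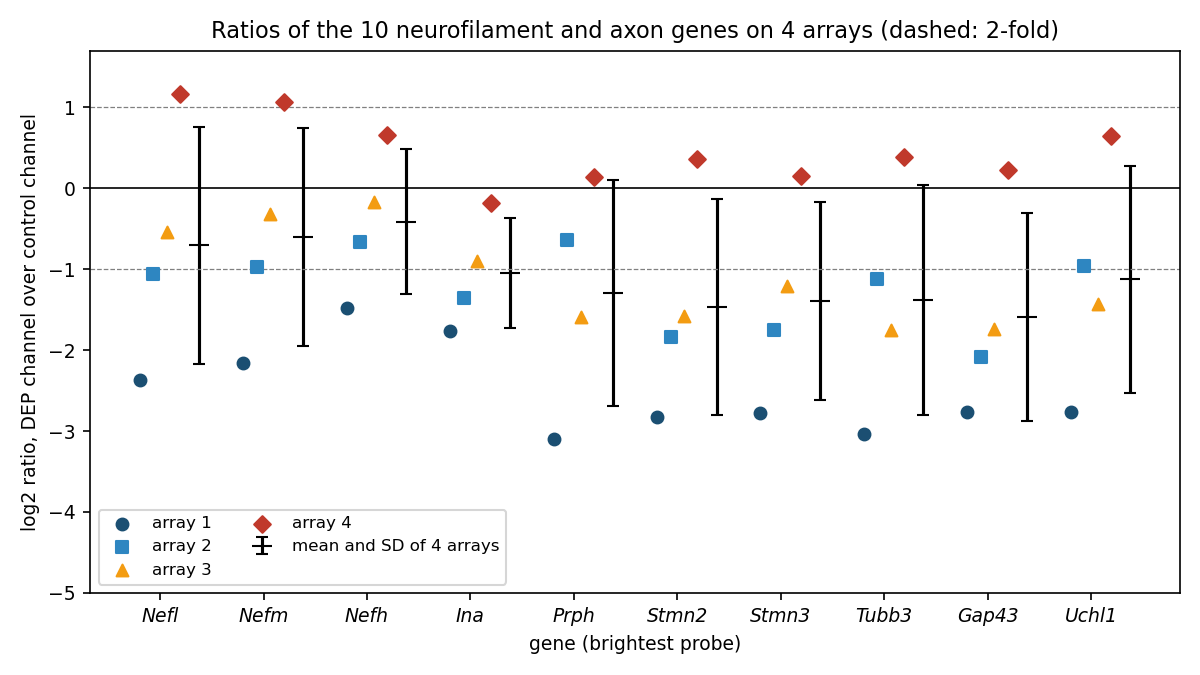
Log2 ratio of the DEP over the control channel for the 10 members (x axis, brightest probe) on each of 4 arrays, with the mean and SD of the 4 at the right of each gene. Points of array 1 lie lowest for every gene, and those of array 4 lie above 0 for every gene but Ina.

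The light subunit Nefl, the core on which neurofilaments assemble, had log2 ratios of -2.37, -1.06, -0.54 and 1.16 on arrays 1 to 4. The first 3 arrays were lower and the last was higher by a similar size to the second. Its mean was -0.70 ± 1.46 (SD, n = 4; limma SE 0.58, adjusted p = 0.538). The processed signal in Cy5 was 1764, 5716, 5493 and 11213, and in Cy3 it was 9135, 11922, 8014 and 5013. The DEP channel thus spanned a wider range than the control channel, and the channels overlapped.

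Nefm, the medium subunit, ran closely with Nefl, at -2.16, -0.97, -0.31 and 1.07 (mean -0.60 ± 1.35, SD, n = 4; limma adjusted p = 0.568). Its probe was spotted 10 times on each array, and the SD of the log2 ratio between these spots was between 0.02 and 0.08. The distance between the 2 subunits over the 4 arrays was 0.34, the second smallest of all member pairs.

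Nefh, the heavy subunit with the long phosphorylated tail, had the smallest mean of the 10, with -1.48, -0.66, -0.17 and 0.66 by its brightest probe (mean -0.41 ± 0.90, SD, n = 4; limma adjusted p = 0.564). Its other probe gave -1.40, -0.80, -0.44 and 0.42 (mean -0.56 ± 0.76). Both probes went the same way on every array, and for both arrays 1 to 3 were lower and array 4 higher. Within an array, Nefh minus Nefl was 0.90, 0.40, 0.38 and -0.50, so the heavy subunit lay nearer to 0 than the light one on every array. That difference averaged 0.29 ± 0.58 (SD, n = 4; exact sign-flip permutation p = 0.5, two-sided; 95% interval -0.63 to 1.22).

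Ina encodes alpha-internexin, the filament protein of central neurons, and was the exception on array 4. Its log2 ratios were -1.77, -1.35, -0.90 and -0.18, a mean of -1.05 ± 0.68 (SD, n = 4; limma SE 0.28, unadjusted p = 0.0136, adjusted p = 0.184). The control channel was 2.07-fold above the DEP channel by this mean. Its SD was the smallest of the members, and its value on array 1 was nearer to 0 than that of any other member except Nefh.

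Prph, the peripherin gene of peripheral sensory and autonomic neurons, gave -3.10, -0.64, -1.59 and 0.14 (mean -1.30 ± 1.39, SD, n = 4; limma adjusted p = 0.294). It was the lowest member on array 1 and the highest on array 2, so its order among the members changed between arrays. Tubb3, which encodes beta-III tubulin, had a similar profile of -3.04, -1.12, -1.75 and 0.38 (mean -1.38 ± 1.42; adjusted p = 0.283). Uchl1 gave -2.77, -0.96, -1.43 and 0.65 (mean -1.13 ± 1.41; adjusted p = 0.340). Prph, Tubb3 and Uchl1 were lower on array 3 than on array 2, and the 3 neurofilament subunits, Ina, Stmn2, Stmn3 and Gap43 were lower on array 2 than on array 3.

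The stathmin gene Stmn2 (SCG10), enriched in growing axons, had ratios of -2.83, -1.84, -1.58 and 0.36 (mean -1.47 ± 1.34, SD, n = 4; limma unadjusted p = 0.0387, adjusted p = 0.249). Its relative Stmn3 (SCLIP) gave -2.78, -1.75, -1.20 and 0.16 (mean -1.39 ± 1.22; adjusted p = 0.242). Gap43 had the lowest mean of the 10, with -2.77, -2.08, -1.74 and 0.22 (mean -1.59 ± 1.28; limma unadjusted p = 0.0259, adjusted p = 0.222), 3.01-fold by this mean. All 3 genes were lower on arrays 1 to 3 and slightly higher on array 4. The nearest member pair by distance over the arrays was Stmn2 and Gap43 at 0.32, and the farthest was Nefh and Gap43 at 2.52. No member passed the adjusted threshold in any of these fits.

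The contrast of the filament partners was made within each array, as a difference of 2 log2 ratios. Prph minus Ina was -1.33, 0.71, -0.68 and 0.32, below 0 on 2 arrays and above 0 on 2. Its mean was -0.24 ± 0.93 (SD, n = 4; exact sign-flip permutation p = 0.75, two-sided; 95% interval -1.73 to 1.24), and without array 1 it was 0.12. Prph minus Nefl was -0.72, 0.42, -1.04 and -1.02, below 0 on 3 arrays (mean -0.59 ± 0.69; exact sign-flip permutation p = 0.25; 95% interval -1.68 to 0.50). Stmn3 minus Stmn2 was 0.04, 0.09, 0.38 and -0.21 (mean 0.08 ± 0.24; exact sign-flip permutation p = 0.625; 95% interval -0.31 to 0.46), and without array 3 it was -0.024. Adjusted over the 4 pairs compared, each p was 0.75, and with 4 arrays the smallest p possible is 0.125. The intervals are wide for all pairs but the stathmins, and none of the 4 differences passed its test.

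**Figure D2:**
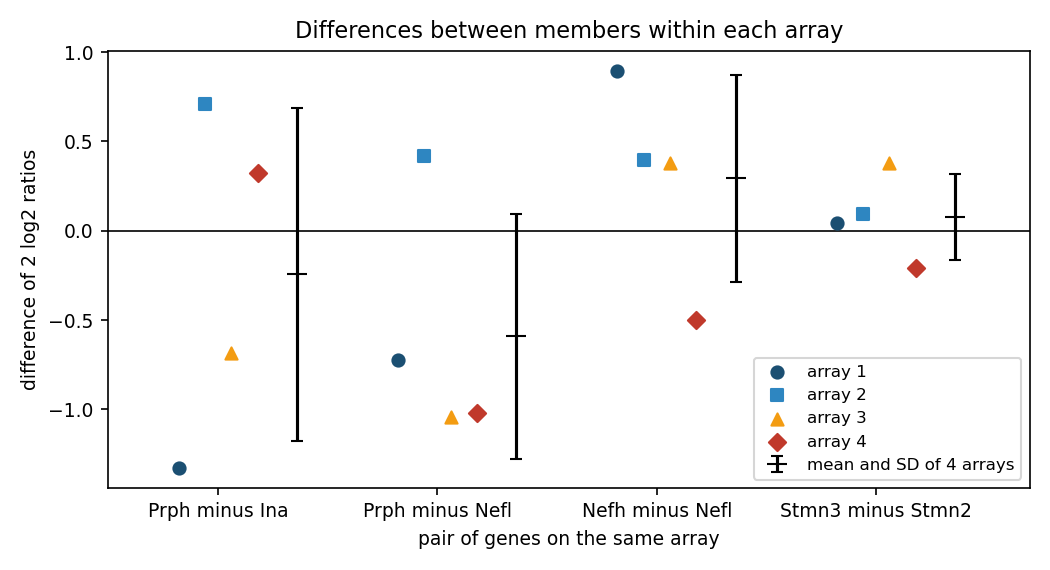
Difference of 2 log2 ratios on the same array for the 4 pairs compared, with points for arrays 1 to 4 and the mean and SD at the right. The points of the stathmin pair lie between -0.21 and 0.38, and those of Prph minus Ina between -1.33 and 0.71.

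The triplet was set beside the other members by array, with no test since this grouping was read from the values. On array 3 the median of Nefl, Nefm and Nefh was -0.31, while that of the other 7 members was -1.58. On array 4 these medians were 1.07 and 0.22. On arrays 1 and 2 they were -2.16 and -2.78, and -0.97 and -1.35. The triplet was above the others by median on every array, but gene by gene on arrays 3 and 4 only. On array 1 Ina lay above Nefl and Nefm. On array 2 Prph lay above the whole triplet and Uchl1 above Nefl and Nefm.

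Each channel was then read on its own, as log2 signal minus the 75th percentile of the same array and channel. The SD over the 4 arrays of a channel had a median of 1.02 over the members in Cy5 and 0.86 in Cy3, against 0.19 and 0.22 over the 18345 genes measured throughout. The members thus varied more than most genes between extracts with the same label. The DEP channel was lowest on array 1 for 9 of 10 members, all but Ina, and the control channel was lowest on array 4 for 9 of 10, all but Prph. The channels overlapped for all 10 members. Scaling by quantiles of the mean signal gave medians of the SD of 0.95 and 0.79.

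Ina varied mostly in the control channel, where its scaled level was 1.71, 1.15, 0.84 and -0.29, while in the DEP channel it was -0.05, -0.19, -0.04 and -0.46. The filament subunits had the opposite arrangement. Nefh stayed at 3.21, 3.69, 3.22 and 3.15 in the control channel and went from 1.74 to 3.04, 3.08 and 3.82 in the DEP channel. Nefl spanned 3.35 in the DEP channel and 1.01 in the control channel. In the control channel 5 members were highest on array 3, Prph, Tubb3, Uchl1, Stmn2 and Gap43, at 3.60, 3.87, 2.55, 3.96 and 2.80. For Stmn2 the control channel of array 4, at 1.92, lay below its other 3 values of 3.65 to 3.96.

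**Figure D3:**
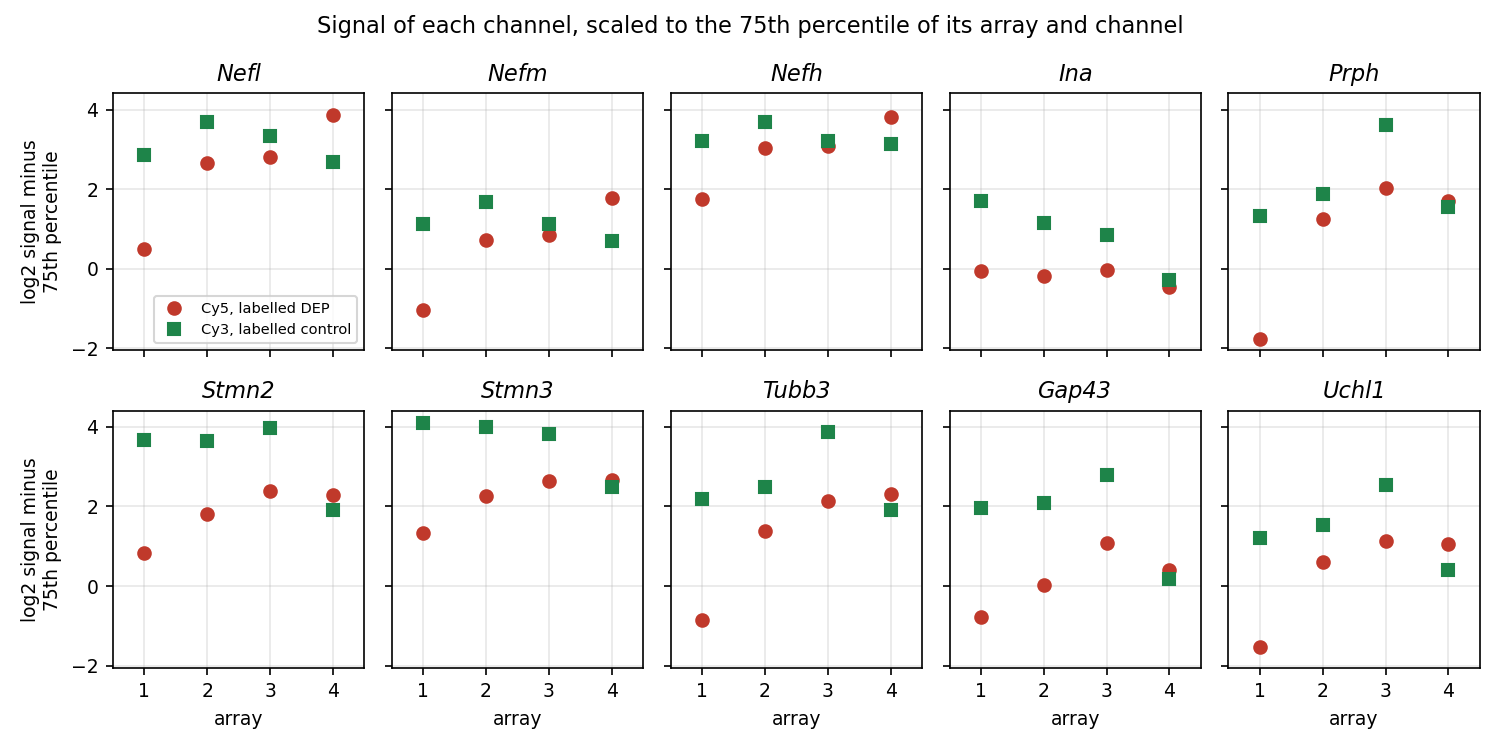
Log2 signal minus the 75th percentile of its array and channel (y axis) on arrays 1 to 4 for each member, with circles for the Cy5 channel labelled DEP and squares for the Cy3 channel labelled control. Circles lie lowest on array 1 for 9 genes, and Ina varies by 0.42 in Cy5 and 2.00 in Cy3.

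Further genes of the axon skeleton were taken from a list of 40, covering tubulins, microtubule-associated proteins, kinesins, growth cone proteins, ankyrins, spectrins and axonal adhesion molecules. All 40 were tested and 39 were measured throughout. The mean was lower for 37 (45.8% of all genes), 15 of them had an unadjusted p under 0.05 (8.66% of all genes in that direction), and 13 were past 2-fold lower (4.40%). None passed the adjusted threshold in limma (0 of 40), and 10 were lower on all 4 arrays (11.5%). The median was -0.78, and on arrays 1 to 4 the medians were -1.49, -0.98, -0.82 and 0.18. The same order of signs by array was thus seen in a wider set, with smaller sizes than in the members. This set too was chosen with earlier results of these data known. Without array 4, 31 were lower with an unadjusted p under 0.05 (10.02% of all genes), 21 were past 2-fold lower (6.14%), Dst was past 2-fold higher, and 36 were lower on all arrays left (20.1%). Without array 1, 1 was past 2-fold lower (3.68%). The unadjusted p was under 0.05 for 4, 5 and 7 without array 2, 3 and 1, all lower, against 5.68%, 5.97% and 7.04% of all genes.

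Crmp1, a collapsin response mediator of growth cones, was the lowest, at -2.67, -2.61, -1.61 and 0.23 (mean -1.66 ± 1.36, SD, n = 4; limma adjusted p = 0.224). The axonal adhesion gene Cntn1 had a mean of -1.41 ± 1.73, the stathmin Stmn4 -1.34 ± 1.35 and the nodal adhesion gene Nrcam -1.30 ± 1.23. Each of these 4 was lower on arrays 1 to 3 and higher on array 4, as were all members but Ina. At the other end, Dst, the cytolinker dystonin, which epithelium and muscle express too, ran the opposite way with 2.81, 0.32, 0.28 and -1.26 (mean 0.54 ± 1.69; adjusted p = 0.676). Dpysl5 was slightly higher on all 4 arrays (mean 0.27 ± 0.12; adjusted p = 0.276), and Marcks had a mean of -0.13 ± 0.12.

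**Figure D4:**
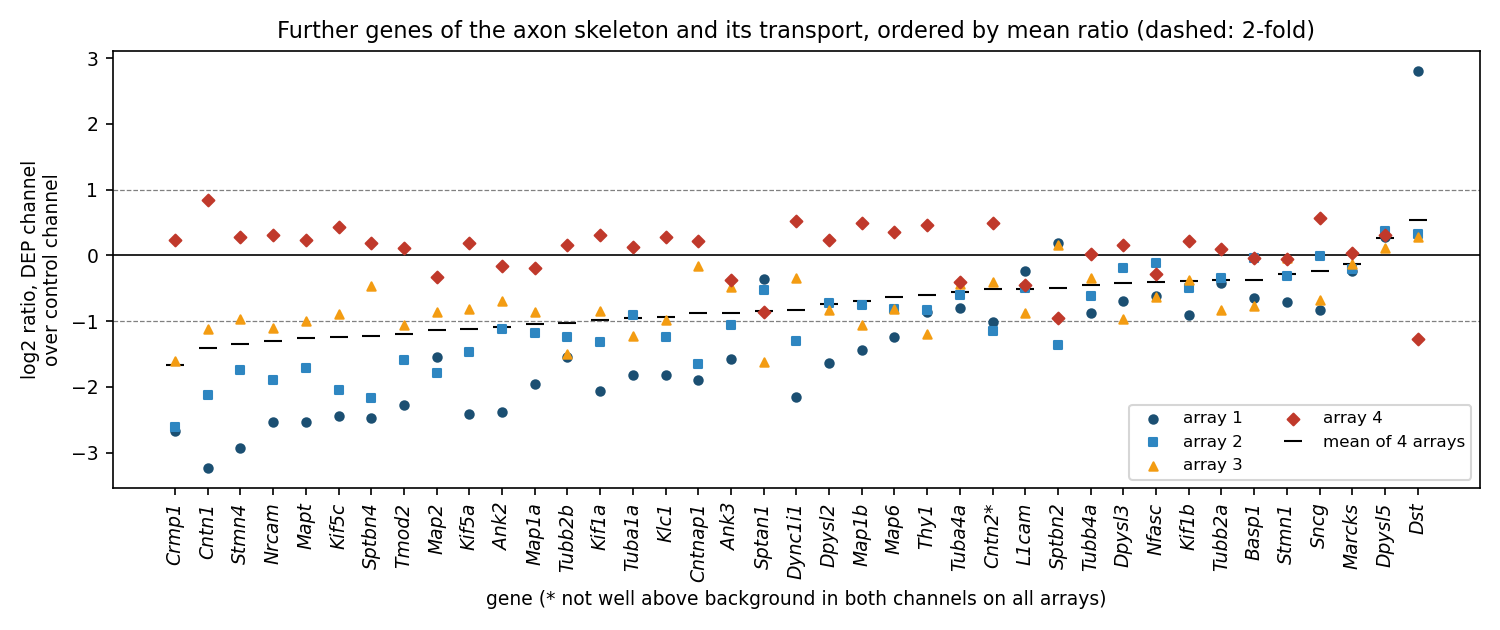
Log2 ratios of 39 of the 40 further axon genes, ordered by mean, with a point for each of arrays 1 to 4 and a bar for the mean. The means run from -1.66 for Crmp1 to 0.54 for Dst, and 37 of the 39 lie below 0.

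Genes outside all lists were ranked by distance to the median member profile over the 4 arrays, among 14155 candidates. The nearest were Rab6b, a neuronal Golgi GTPase gene (distance 0.28), Sult4a1, a brain sulfotransferase gene (0.29), Slitrk5 (0.34), Pcdhac2 (0.37) and Syt11 (0.40). Rab6b had ratios of -2.80, -1.19, -1.11 and 0.53. Of the members themselves, Uchl1 was nearest to this profile at 0.32 and Nefh farthest at 1.80. By Pearson correlation 0 of the 5 names were shared, so these names rest on the measure of likeness.

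Markers of the cells that temporal bone tissue can hold were read on the same arrays. Of 9 genes of airway-type epithelium, as in the middle ear, all 9 were measured throughout, as were all 5 bone genes, 6 muscle genes and 7 marrow genes tested. Of 10 central neuron markers 7 were measured throughout, of 9 cerebellar markers 5, of 10 peripheral sensory markers 7 and of 7 cholinergic and autonomic markers 3. Neurod6, Car8, Cbln3, Chat and Olig2 were well above background on 0 arrays in Cy5. Calb1, Opalin, Slc26a5 and Prrxl1 had too few ratios, and Scn9a, Mnx1 and Bglap matched no probe.

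The neuronal lists had their low medians on different arrays. The central neuron medians were -2.33, -2.27, -0.43 and -0.20, and the cerebellar ones -3.07, -3.55, -0.24 and 0.24. Over the genes measured throughout, these were -2.06, -1.83, -0.43 and 0.04 for 7 central neuron genes, with the sign on array 4 turned, and -2.55, -3.16, -0.32 and 0.24 for 5 cerebellar genes. The peripheral sensory list was low on array 1, at -2.38, and lay at -0.29, -0.53 and 0.61 on the others, while its 7 genes measured throughout had -1.17, -0.39, -0.28 and 0.61. The cholinergic and autonomic list was lowest on array 3, with -0.85, -0.40, -1.71 and -0.04, and its 3 genes measured throughout had -0.40, -0.40, -3.25 and 0.23. Array 2 thus had low central and cerebellar medians beside a sensory median near 0, and on that array Prph was the highest member and Gap43 the lowest. Ina, the central partner, ranked 4 from the lowest there. On array 1 the central and sensory medians were alike over the genes tested, at -2.33 and -2.38. Over those measured throughout they were -2.06 and -1.17.

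The brightest gene of the peripheral sensory list, Calca (CGRP), gave -6.25, -0.86, -0.78 and 0.64, and that of the autonomic list, Th, the rate-limiting enzyme of catecholamine synthesis, -1.14, -0.13, -3.49 and -0.04. Calca was far lower on array 1 than on the others, and Th on array 3. Prph, Tubb3, Uchl1, Stmn2 and Gap43 had their highest scaled control signals on array 3. On that array the catecholamine enzyme gene Dbh and Ecel1, named after their values were seen, stood at -3.28 and -3.25. The list was not uniform on that array, where 4 of its 7 genes were lower and the cholinergic genes Chat, Slc18a3 and Slc5a7 stood at 0.89, 0.50 and 0.02. Snap25, the brightest central neuron marker, had -1.23, -0.88, -0.35 and -0.21. Itpr1, the brightest of the cerebellar list, gave -2.55, -2.50, -0.33 and -0.07. These markers differed by array, and their part in the members' ratios was not tested.

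Summed levels of the measured markers were taken as log2 of the summed scaled signals. For the cerebellar list they ran from 2.68 to 3.36 in the DEP channel and from 2.51 to 6.21 in the control channel, and for the central neurons from 3.46 to 3.94 and from 3.86 to 5.18. The peripheral sensory sum ran from -0.80 to 3.74 in DEP and from 2.54 to 3.84 in control, and the autonomic sum from -0.30 to 1.43 and from -0.20 to 4.84. The members' sum ran from 3.62 to 5.80 in DEP and from 5.18 to 6.53 in control. The cerebellar and autonomic sums thus varied most in the control extracts and the sensory sum most in the DEP extracts. For the 3 autonomic genes this rests on the control extract of array 3, against -0.20 to 0.65 on the other arrays. Bright genes dominate such sums. In that extract the processed signal was 21460 for Th, 1070 for Ecel1 and 54 for Slc18a3.

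The Schwann cell list holds markers of the sheath of peripheral axons. Its medians were nearer to 0 than those of the members on arrays 1 to 3, at -0.41, 0.25, 0.16 and 0.37, 4 of its 8 genes had a lower mean, near the 45.8% of all genes, and its summed level ran from 4.99 to 5.33 in DEP and from 4.79 to 5.33 in control. Pmp22, its brightest gene, gave -0.56, 0.00, -0.31 and 0.40. Oligodendrocyte medians were -1.65, -0.68, -0.29 and 0.21, and astrocyte medians -1.90, -0.45, -0.19 and 0.21. Their brightest genes, Ermn and S100b, had means of -0.76 ± 0.78 and -0.25 ± 0.81. Neuroendocrine genes, some of which neurons also express, had medians of -2.80, -1.60, -1.24 and 0.34, and the brightest, Chgb, a mean of -1.74 ± 1.73.

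Lists of tissue other than nerve were read in the same way. Muscle lay at -0.72, -0.51, 0.75 and 0.76, bone at -0.14, 0.23, 0.15 and 0.72 and marrow at -0.68, 0.01, 0.50 and 0.34. Airway-type epithelium had -0.23, 0.35, -0.26 and -0.58, and the inner ear sensory cells -0.28, 0.01, 0.35 and -0.25. The 4 inner ear genes measured throughout had -0.12, 0.01, 0.08 and 0.05, with the sign on array 4 turned. The brightest genes, Myh4, Col1a1, S100a8, Bpifa1 and Otof, had means from -0.31 to 0.27, and none passed the adjusted threshold. The muscle, bone and marrow medians were higher on array 4 and lower on array 1, as the member median was. On array 3 these medians were higher, and on array 2 muscle was lower, bone higher and marrow near 0. All 10 members were lower on arrays 2 and 3. Whether the shares of tissue in the extracts bear on the members was not tested.

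**Figure D5:**
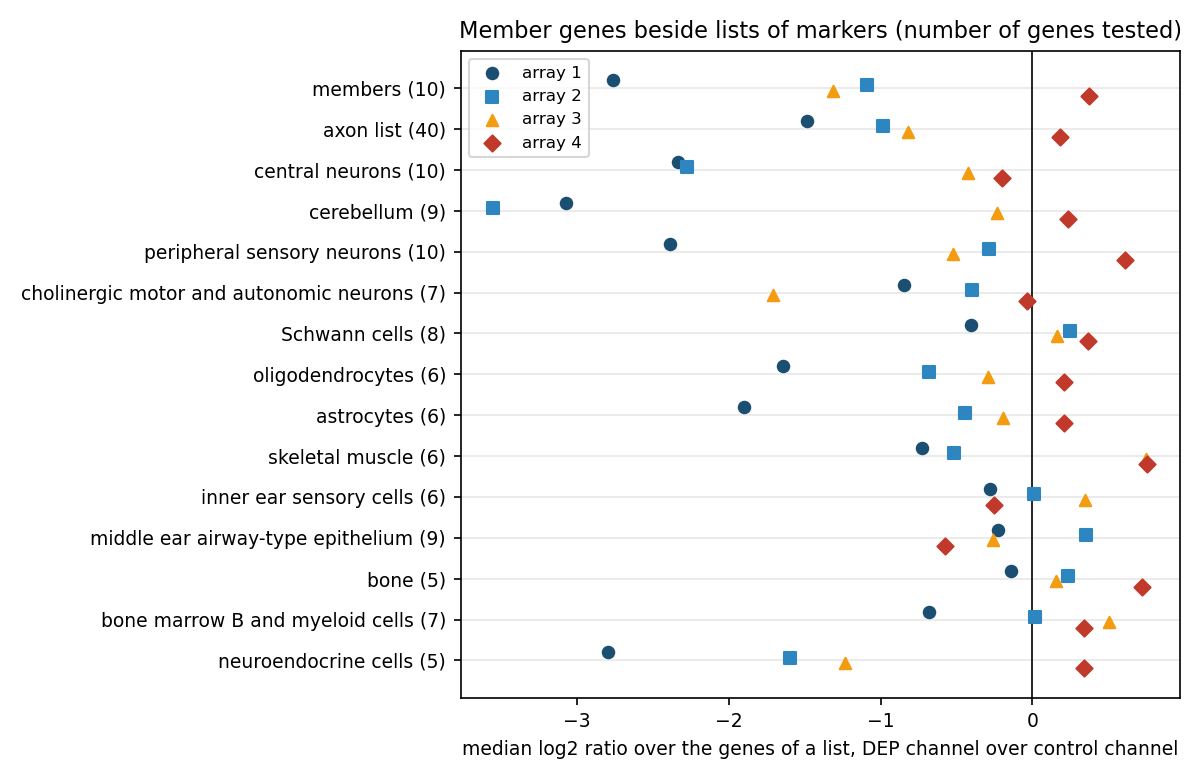
Median log2 ratio on each of 4 arrays for the members, the axon list and 13 lists of markers, with the number of genes tested in brackets. The member median runs from -2.77 on array 1 to 0.37 on array 4, and the Schwann cell median from -0.41 to 0.37.

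Over the whole series, between 6179 and 8558 of 43020 spots had no ratio and 164 to 274 were flagged. Between 23351 and 27178 probes were well above background in a channel. The log2 ratios of arrays 1 and 2 correlated with r = 0.61 across probes and those of arrays 1 and 4 with r = -0.22, with the other pairs between 0.14 and 0.38. Probes of an array are not independent replicates. No gene of the series passed the adjusted threshold in limma (0 of 25694), and 4803 had an unadjusted p under 0.05 in either direction. The number of arrays limits the precision of every value given here.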

How the data were processed

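RNA of the middle ear region was labelled with Cy5 or Cy3 and hybridised to 4 2-colour Agilent mouse arrays. Per the file headers, the authors extracted spots with Agilent Feature Extraction 10.10.1.1, which subtracted background and normalized the dyes. The deposited log10 ratios (Cy5 over Cy3) were converted to log2 here, and the deposited processed signal intensity of each channel was used for levels. A deposited table of ratios equalled the array files for 100% of values within 0.6%, and served as an alternative. Outlier spots, as marked by the software, and those lacking a ratio were not used, and repeated spots were averaged per probe. Dye normalization forces the bulk of ratios towards 0, so every ratio is relative to the other genes of its array.

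Probes with at least 3 ratios were fitted with an intercept in limma 3.58.1 (R 4.3.3), with Benjamini-Hochberg adjustment over 31577 probes, and the brightest probe stood for its gene. Probes were named through RefSeq accessions, 27655 of 39429. Pairs were compared by exact sign-flip test over arrays, with 95% intervals from the SD. The fit was tested on simulated data. Members and lists were chosen with earlier results of these data known. Named were all members, the 4 lowest and 4 highest genes of the axon list, the brightest gene of each marker list (in each case measured in both channels on all arrays), and the 5 genes nearest to the member profile, with exceptions stated; some genes of the lists are counted but not reported here by name. Alternatives were normexp (offset 50) with loess or median centring, the deposited table, filters on background, flagged spots kept, the mean of probes, limma's intensity trend, ordinary least squares, leaving out each array, quantile scaling of channels and Pearson correlation for likeness.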

Additional observations from a re-analysis of the deposited data

Results flagged for a closer look

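Of 73 sets of 4 values examined for a single array far from the other 3 by Dixon's ratio, 4 stood out, and chance gives about 1 in 20. For Nefh, the scaled log2 signal of the control channel was 3.69 on array 2 against 3.15 to 3.22 on the others. Stmn2 in the same channel was 1.92 on array 4 against 3.65 to 3.96. The log2 ratio of S100b was -1.45 on array 1 against 0.04 to 0.28, and that of Bpifa1 was 0.78 on array 2 against -0.06 to 0.07.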

How the results depend on the processing

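All 10 members kept a lower mean under every alternative run, and 0 had an adjusted p under 0.05 (lowest 0.087, with median centring). With normexp and median centring, 2 members had an unadjusted p under 0.05, against 14.1% of all genes in the lower direction, 3 were past 2-fold, against 1.12%, and on array 3 only 8 of 10 were lower. In the axon list that setting gave 9 genes with an unadjusted p under 0.05 (8 lower, 1 higher), 1 with an adjusted p under 0.05 (Dpysl5, higher), 2 past 2-fold (1.12% of all genes) and 6 of 40 lower on all arrays, which is no more than the 17.5% of all genes, while 1546 genes of the series passed the adjusted threshold. With loess, 25 axon genes had an unadjusted p under 0.05 (24 lower, against 8.75% of all genes) and 8 were past 2-fold, against 1.45%. Ordinary least squares gave 0 members and 4 axon genes (3 lower) with an unadjusted p under 0.05, against 6.11% of all genes in the lower direction. The cause was not tested. By Pearson correlation 0 of the 5 most like genes were shared.

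Leaving out each array in turn gave 0 to 9 members with an unadjusted p under 0.05, 2 to 9 past 2-fold, 1 to 10 lower on every array left and member medians of -1.75 to -0.75. For the axon list these were 4 to 31, 1 to 22, 10 to 36 and -1.05 to -0.57. Prph minus Ina ran from -0.56 to 0.12, the latter without array 1, and Stmn3 minus Stmn2 from -0.024, without array 3, to 0.17. Prph minus Nefl ran from -0.93 to -0.44 and Nefh minus Nefl from 0.09 to 0.56. The other 161 values that answer a comparison kept their direction and their side of the threshold, or stayed within the spread between arrays. All 121 values of single genes kept their direction and an adjusted p above 0.05. Their unadjusted p did cross 0.05 in limma. For Nefl it went from 0.276 to 0.0241 without array 4, and for Stmn2 from 0.0387 to 0.118 without array 1. Each ratio already pairs the 2 extracts of an array, so the fit is a paired one. All member probes were measured above background, and with 4 arrays that differ in direction the intervals are wide.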
